A study of Mus musculus with 8 samples.

Results

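The genes described here encode aggrecan and proteins secreted with it into the extracellular matrix of cartilage. With earlier results of these data known, the 10 members were taken by name from the count table, without a rule on their values. They are the proteoglycan core protein *Acan*, its link protein *Hapln1*, the matrix adaptors *Comp*, *Matn1*, *Matn2*, *Matn3* and *Matn4*, the small chondrocyte products *Snorc* and *Mia*, and *Prg4*, the gene of lubricin. All 10 were among the 16536 genes of the table, and all 10 passed the filter on low counts that left 15421 genes for testing.

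Aggrecan carries the sulfated chains that hold water in cartilage, and link protein fixes it to hyaluronan. Matrilins and COMP bridge collagen fibrils and proteoglycans, and different matrilins are typical of different cartilages and soft tissues. Growth plate chondrocytes are known for high aggrecan and matrilin expression, whereas lubricin is best known from the superficial cells of articular cartilage and from synovium, where it lubricates the joint surface.

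RNA was sequenced from sorted mCherry+CD73+ cells of the femoral growth plate region in 8 Pthrp-mCherry mice, with 1 library per mouse and the growth plates of both femurs combined. Of these, 4 mice received SAG, an agonist of the Hedgehog signal transducer Smoothened, and 4 received only the vehicle DMSO. Injections were given intraperitoneally once daily between P30 and P36, and the mice were killed at P38. In both groups mCherry was expressed from the gene of PTHrP (*Pthlh*), so the sort was meant to take cells with activity of that gene, and CD73 was used to separate growth plate cells from mCherry+ cells of the joint surface and perichondrium. The labels name no Cre and no further allele.

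Library totals were between 24971992 and 46593090 counts, at which 3 counts correspond to 0.0670 to 0.114 CPM (the share of a library's TMM-scaled total), for counting error only. Transcripts of 12 chondrocyte reference genes (collagens II, IX and XI, *Sox5*, *Sox6*, *Sox9*, *Cnmd*, *Fgfr3* and *Chad*) were present in every library. Their sum was 46667 to 108504 CPM in DMSO libraries and 18820 to 52569 CPM in SAG libraries, and none was at 0 in any library. The sum over 13 neutrophil genes was 5387 to 15192 CPM in DMSO and 28898 to 46076 CPM in SAG, and none of these was at 0 in any library either. Of the neutrophil genes, 11 of 13 rose with SAG (edgeR's quasi-likelihood test, Benjamini-Hochberg adjusted p under 0.05, at which 2.62% of all tested genes were higher), for example *S100a9*, a granulocyte calcium-binding protein, by a log2 fold change of 2.00 (SE 0.29). The neutrophil count was 4 without DMSO replicate 3 and 7 without DMSO replicate 2 or SAG replicate 4. It was 0 with library sizes scaled to the chondrocyte reference genes, where 0.00648% of all genes were called higher. In that fit the log2 fold change of *S100a9* was 3.09 (edgeR adjusted p = 0.0526). Of 9 B-lineage genes tested, 3 fell by edgeR and 7 by DESeq2, beside 0.266% and 2.53% of all genes. The B-lineage count by edgeR was 1 without DMSO replicate 3 or SAG replicate 2, 3 or 4. With that scaling it was 0, where 0.0% of all genes were called lower. The summed level of the 10 B-lineage genes in the table was 82.9 to 375 CPM in DMSO against 18.6 to 41.7 CPM in SAG, with *Vpreb1*, *Vpreb3*, *Ms4a1* and *Rag1* at 0 in at least 1 library. The part of these other cells in the results below was not tested, and in bulk RNA fewer chondrocytes cannot be told apart from less RNA of a gene per chondrocyte.

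**Figure D1:**
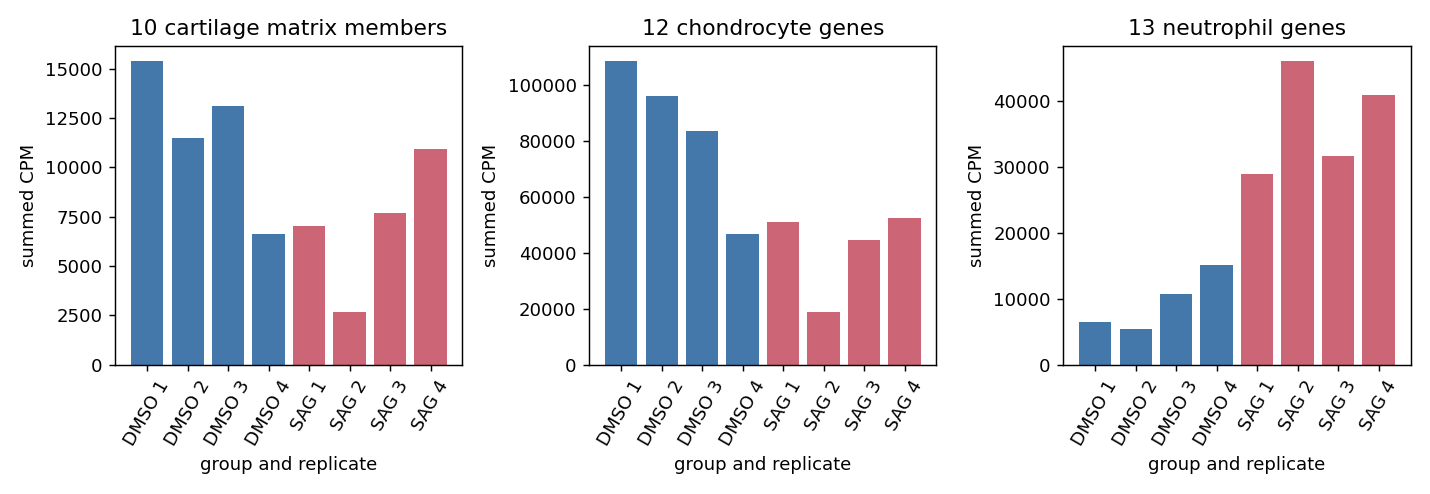
Summed CPM (vertical axes) in each library (horizontal axes; DMSO blue, SAG red) for the 10 cartilage matrix members, 12 chondrocyte reference genes and 13 neutrophil genes. SAG replicate 2 held the lowest chondrocyte sum (18820 CPM) and the highest neutrophil sum (46076 CPM).

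The start regions of *Acan*, *Matn1* and *Matn3* are shown because *Acan* had the highest level per length in DMSO and the other 2 were the members with the largest differences between groups. Each line is the 250 bases before the RefSeq transcript start (GRCm38.p6, plus strand, 5′ to 3′), at chr7:79052976-79053225 for *Acan*, chr4:130944135-130944384 for *Matn1* and chr12:8947679-8947928 for *Matn3*. Capitals mark matches, on either strand, to any of 4 motifs searched. The GC box was searched as the letters GGGCGG and the E-box as the letters CACCTG. For the TATA box these were TATAAA, and for a SOX-type site they were AACAAT.
Acan: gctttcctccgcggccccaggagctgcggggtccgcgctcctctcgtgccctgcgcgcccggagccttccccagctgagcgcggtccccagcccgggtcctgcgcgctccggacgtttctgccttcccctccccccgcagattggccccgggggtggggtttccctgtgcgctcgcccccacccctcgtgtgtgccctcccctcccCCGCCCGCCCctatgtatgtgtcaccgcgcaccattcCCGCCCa
Matn1: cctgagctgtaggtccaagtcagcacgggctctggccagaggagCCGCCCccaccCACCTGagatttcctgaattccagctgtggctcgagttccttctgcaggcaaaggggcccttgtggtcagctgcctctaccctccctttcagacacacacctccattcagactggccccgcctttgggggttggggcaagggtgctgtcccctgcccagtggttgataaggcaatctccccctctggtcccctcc
Matn3: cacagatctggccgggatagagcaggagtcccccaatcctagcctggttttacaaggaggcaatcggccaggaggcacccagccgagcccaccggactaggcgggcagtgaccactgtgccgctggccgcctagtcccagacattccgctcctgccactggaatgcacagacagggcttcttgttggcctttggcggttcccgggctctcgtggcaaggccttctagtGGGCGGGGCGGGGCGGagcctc
The GC content of these windows was 74.4% for *Acan*, 62.0% for *Matn1* and 65.2% for *Matn3*, beside a median of 52.4% over all windows of that length. *Acan* held 3 GC-box matches, at 44 to 39, 40 to 35 and 7 to 2 bases before the start. *Matn3* held 3 overlapping GC-box matches, at 22 to 17, 17 to 12 and 12 to 7 bases before it. *Matn1* held 1 GC-box match 206 to 201 bases before the start and 1 E-box match 195 to 190 bases before it. None of the 3 windows held the SOX-type or TATA letters. Among 32851 windows, 32.7% held the GC box, 17.2% the E-box, 12.4% the TATA box and 9.42% the SOX-type letters. RefSeq windows were found for 6 of the 10 members.

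Levels were first ordered per kilobase of exon (CPM per kilobase), the only scale on which genes can be set beside each other. In DMSO libraries *Acan* had the highest mean (688), followed by *Comp* (532), *Prg4* (410), *Hapln1* (356), *Snorc* (288) and *Matn3* (230). Much lower were *Mia* (44.6), *Matn1* (19.0), *Matn4* (10.2) and *Matn2* (5.90). The ranges of neighbours over the libraries overlapped except at 2 steps, *Matn3* above *Mia* and *Mia* above *Matn1*. Such overlap compares different mice, and within every library of both groups *Acan* was above *Comp*. In SAG libraries the order of means began with *Prg4* (438), *Acan* (379) and *Comp* (268) and ended with *Matn4* (7.31), *Matn2* (4.98) and *Matn1* (4.79), and only the step from *Matn3* to *Mia* was free of overlap. *Matn1*, the matrilin typical of hyaline cartilage, was the third lowest member in DMSO and the lowest in SAG by mean. Its range over libraries overlapped with those of *Matn4* and *Matn2* in both groups, but within each DMSO library *Matn1* was above both.

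**Figure D2:**
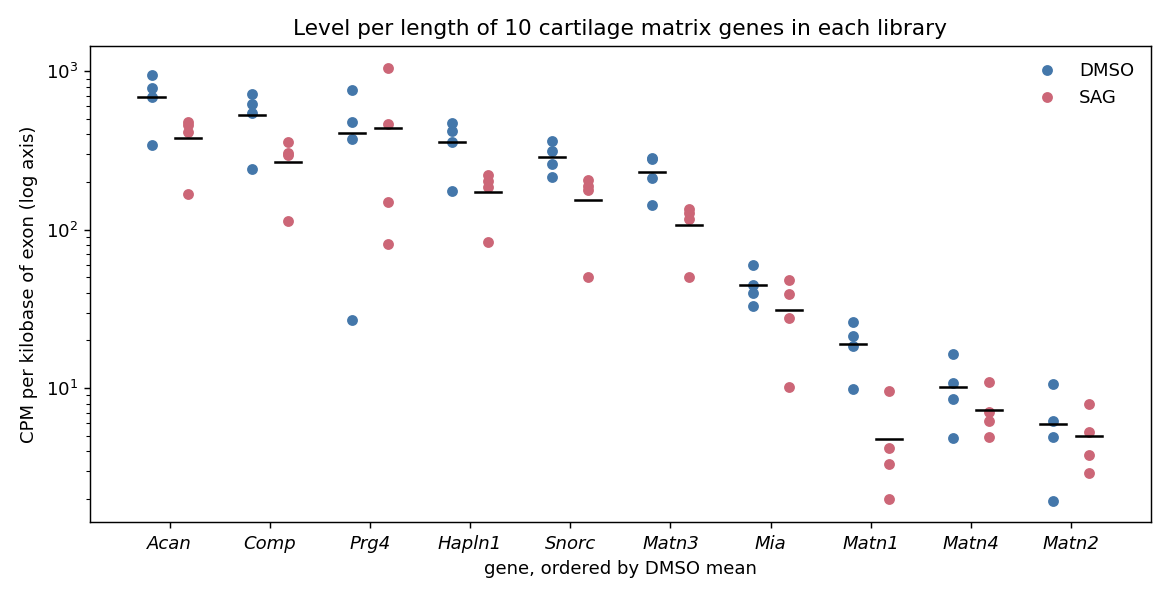
Level per length (CPM per kilobase of exon, log axis) of each member in 4 DMSO (blue) and 4 SAG (red) libraries, with black lines at the group means. *Prg4* spread over the widest range in both groups, and *Matn1* in SAG had the lowest mean (4.79).

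With SAG, 9 of the 10 members had a lower estimate and none passed the threshold, though 6 of these 9 signs turned when library sizes were scaled to the chondrocyte reference genes. By edgeR's quasi-likelihood test with Benjamini-Hochberg adjustment over all 15421 genes, 0 of 10 were called at an adjusted p under 0.05, where 2.89% of all tested genes were called, 2.62% as higher and 0.266% as lower. At an unadjusted p under 0.05, 6 of 10 were lower (*Acan*, *Hapln1*, *Comp*, *Matn1*, *Matn3* and *Snorc*), beside 6.5% of all genes. A lower estimate was seen in 54.8% of all genes, and the median log2 fold change was -0.87 over the members and -0.08 over all genes. DESeq2 called 3 members lower (*Hapln1*, *Matn1* and *Matn3*), beside 2.53% of all genes. DMSO replicate 4 had the smallest total, and its levels of *Acan*, *Hapln1*, *Comp*, *Matn1* and *Matn3* were the lowest of the DMSO group. Without it 4 members were called lower (*Hapln1*, *Comp*, *Matn1* and *Matn3*; edgeR), beside 2.17% of all genes.

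**Figure D3:**
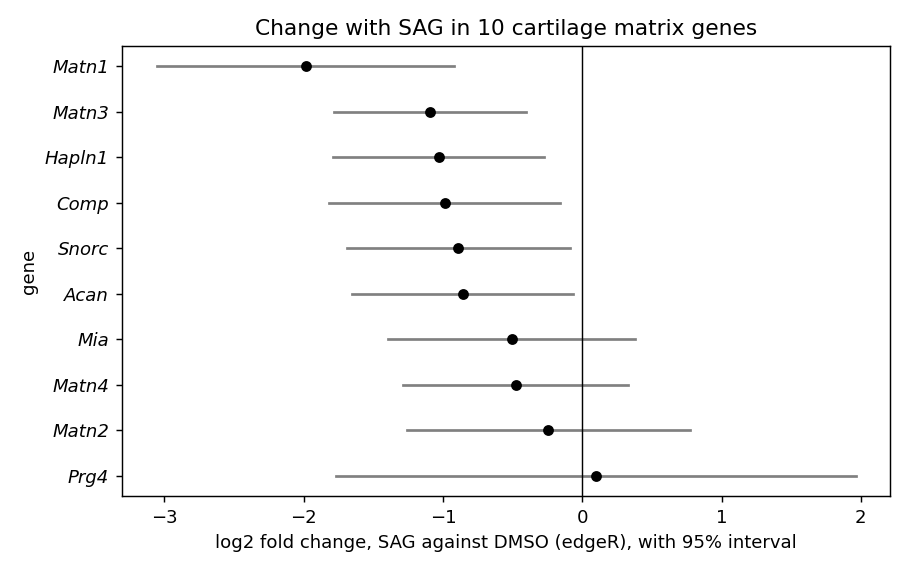
Log2 fold change of each member in SAG against DMSO libraries (edgeR, points) with its 95% interval (lines), and a vertical line at no difference. The intervals of 6 members lie wholly below 0 before adjustment for multiple tests (3 of these 6 turned sign with scaling to the chondrocyte reference genes), and that of *Prg4* runs from -1.77 to 1.96.

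Aggrecan and its link protein, which assemble into aggregates on hyaluronan, had lower estimates in SAG libraries without passing the test. *Acan* was at 7032, 5845, 5112 and 2566 CPM in DMSO replicates 1 to 4 and at 3593, 1250, 3072 and 3416 CPM in SAG replicates 1 to 4. Its group means were 5139 ± 1889 and 2833 ± 1077 CPM (SD, n = 4 each). The groups overlapped only through DMSO replicate 4, which lay below 3 of the 4 SAG libraries, and the log2 fold change was -0.86 (SE 0.36, 95% interval -1.65 to -0.065, edgeR adjusted p = 0.262).

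*Hapln1*, the link protein, was at 2780, 2482, 2098 and 1044 CPM in DMSO and at 1203, 496, 1103 and 1313 CPM in SAG, again with overlap only through DMSO replicate 4. Its log2 fold change was -1.03 (SE 0.35, edgeR adjusted p = 0.149). *Hapln1* counts were 39.5, 42.5, 41.1 and 40.7% of *Acan* counts in DMSO and 33.5, 39.7, 35.9 and 38.4% in SAG. The pair therefore kept close to a single proportion, since its highest and lowest ratios differed 1.27-fold while *Acan* itself spanned 5.63-fold over the same libraries.

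*Comp*, a pentameric thrombospondin family protein that binds collagens and matrilins, was at 2132, 1846, 1612 and 722 CPM in DMSO and at 882, 335, 905 and 1060 CPM in SAG. The log2 fold change was -0.99 (SE 0.38, edgeR adjusted p = 0.216), and 3 of 4 SAG libraries lay above DMSO replicate 4. Relative to *Acan*, *Comp* counts were 30.3, 31.6, 31.5 and 28.2% in DMSO and 24.5, 26.8, 29.4 and 31.04% in SAG, a 1.29-fold span. *Acan*, *Hapln1* and *Comp* thus varied between mice in nearly the same proportions.

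Among the 4 matrilins, *Matn1* and *Matn3* had groups without overlap, with SAG below DMSO as in 3.84% of all tested genes. Whether matrilins differ in their response was not tested. *Matn3*, the matrilin of growth plate cartilage, was at 857, 844, 641 and 432 CPM in DMSO and at 409, 152, 386 and 351 CPM in SAG, so every SAG library lay below every DMSO library. Its log2 fold change was -1.10 (SE 0.31, edgeR adjusted p = 0.0922). It supplied most matrilin transcript per length, with 87.2 ± 2.25% of the summed level of the 4 matrilins in DMSO and 85.7 ± 3.17% in SAG (SD, n = 4 each).

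*Matn1* was at 52.4, 42.8, 37.0 and 19.8 CPM in DMSO and at 4.00, 6.63, 8.37 and 19.3 CPM in SAG. The groups did not overlap, but the highest SAG library and the lowest DMSO library nearly met. With means of 38.01 ± 13.7 and 9.58 ± 6.75 CPM (SD, n = 4 each), the log2 fold change was -1.99 (SE 0.49, 95% interval -3.06 to -0.92), a 3.96-fold lower estimate and the largest of the members. The edgeR adjusted p was 0.0543, just outside the threshold. *Matn1* was called with DESeq2 (adjusted p = 0.00129) and, in edgeR, without DMSO replicate 4 (adjusted p = 0.0116). It was also the 1 member called in edgeR with plain library sizes (adjusted p = 0.0463, beside 0.337% of all genes called lower), with no filter on low counts (0.0493, beside 0.248%), with at least 10 counts in every library (0.0349, beside 0.723%) and without SAG replicate 4 (0.0454, beside 0.0446%). It was not called in edgeR with DESeq2's size factors (adjusted p = 0.0523) or with scaling to the chondrocyte reference genes, which took its log2 fold change to -0.87 (SE 0.55, adjusted p = 0.285). Over the fits that each left out 1 library, the edgeR adjusted p was between 0.0116 and 0.177. *Matn1* counts were 6.11, 5.08, 5.78 and 4.58% of *Matn3* counts in DMSO but 0.977, 4.35, 2.17 and 5.51% in SAG, so the SAG libraries ranged from well below the DMSO values to within them.

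*Matn2*, a matrilin of many connective tissues, and *Matn4*, one of broad distribution, had groups that overlapped throughout. *Matn2* was at 66.2, 38.7, 30.7 and 12.2 CPM in DMSO and at 49.9, 18.2, 23.8 and 32.9 CPM in SAG (log2 fold change -0.24, SE 0.46, edgeR adjusted p = 0.869), and without DMSO replicate 1 its sign turned to 0.20. *Matn4* was at 85.5, 55.8, 44.3 and 24.9 CPM in DMSO and at 56.8, 25.4, 36.8 and 32.3 CPM in SAG (log2 fold change -0.48, SE 0.37, edgeR adjusted p = 0.604), and without DMSO replicate 1 the log2 fold change was -0.14. The exons of *Matn4* share 149 bases with the opposite-strand gene *Rbpjl*.

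Every SAG library lay below every DMSO library for 3 of the 10 members, *Matn1*, *Matn3* and *Snorc*, beside 3.84% of all tested genes. *Snorc*, a small chondrocyte transmembrane proteoglycan, was at 263, 187, 225 and 155 CPM in DMSO and at 128, 36.1, 136 and 149 CPM in SAG (log2 fold change -0.89, SE 0.36, edgeR adjusted p = 0.253). *Mia*, a small secreted protein with an SH3-like domain, overlapped between groups, at 59.8, 39.9, 44.7 and 32.7 CPM in DMSO and at 47.6, 10.2, 39.3 and 27.6 CPM in SAG (log2 fold change -0.51, SE 0.41, edgeR adjusted p = 0.620), and without SAG replicate 2 the log2 fold change was -0.21. Of the 31-base stretches in *Mia* transcripts, 37.2% also occur in the overlapping gene *Gm21983*, so how its reads were assigned is uncertain.

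*Prg4* stood apart from the others in its spread. It was at 2059, 115, 3249 and 1602 CPM in DMSO and at 644, 350, 1991 and 4519 CPM in SAG, a 39.5-fold range in which the lowest library was from DMSO and the highest from SAG. The group means were 1756 ± 1296 and 1876 ± 1901 CPM (SD, n = 4 each), and the log2 fold change of 0.10 (SE 0.85, 95% interval -1.77 to 1.96, edgeR adjusted p = 0.975) leaves room for a sizeable difference in either direction. Without DMSO replicate 2 the value was -0.30, and without SAG replicate 4 it was -0.82. Its SD of log2 CPM within groups was 1.93, larger than that of 99.7% of 6394 genes at least as abundant as the lowest member.

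The count ratio of *Prg4* to *Acan* sets an articular-type matrix gene against a growth plate one within a library, free of library size. *Prg4* counts were 29.3, 1.96, 63.6 and 62.4% of *Acan* counts in DMSO and 17.9, 28.0, 64.8 and 132% in SAG. The groups overlapped, and the mean log2 ratio was -2.19 ± 2.38 in DMSO and -1.13 ± 1.28 in SAG (SD, n = 4 each). The difference of 1.06 was within the spread between mice (exact 2-sided permutation test over 70 relabellings, p = 0.571, where 0.0286 is the smallest p that 4 against 4 allows), and it turned to -0.099 without DMSO replicate 2.

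To set the members beside the rest of the chondrocyte transcripts, each was divided by the summed counts of the 12 reference genes in its own library. In DMSO libraries *Col2a1* had a mean of 53695 CPM and the next reference gene, *Cnmd*, 6694 CPM, so the divisor was mostly *Col2a1*. On the log2 scale of these ratios the SD of *Acan* in DMSO was 0.099, against 0.63 for its log2 CPM. The difference in mean log2 ratio, SAG minus DMSO, was 0.17 for *Acan*, 0.013 for *Hapln1*, 0.041 for *Comp*, -0.097 for *Matn3* and -0.008 for *Snorc*. It was 0.36 for *Mia*, 0.64 for *Matn4*, 0.94 for *Matn2*, 1.23 for *Prg4* and -1.10 for *Matn1*. So of the members whose CPM was lower, most had nearly equal or higher levels relative to the reference genes, and *Matn1* alone differed by a log2 ratio of less than -1.

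Groups were free of overlap on this scale for *Acan*, which was higher in SAG, and *Matn1*, which was lower, where 20.5% of all tested genes were higher in every SAG library and 0.0778% were lower. *Matn1* had log2 ratios of -11.02, -11.13, -11.14 and -11.20 in DMSO and -13.64, -11.47, -12.38 and -11.41 in SAG. All SAG libraries lay below all DMSO libraries, also with *Col2a1* left out of the reference (difference -1.17), and the difference was -0.63 without SAG replicate 1. The *Acan* groups overlapped once *Col2a1* was left out. These ratios carry no test, and with library sizes scaled to the reference genes edgeR called 0 members in either direction (0.00648% of all genes higher and 0.0% lower), with the median of all genes moved by 1.12 on the log2 scale, from -0.08 to 1.04, and 0 members above that median.

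**Figure D4:**
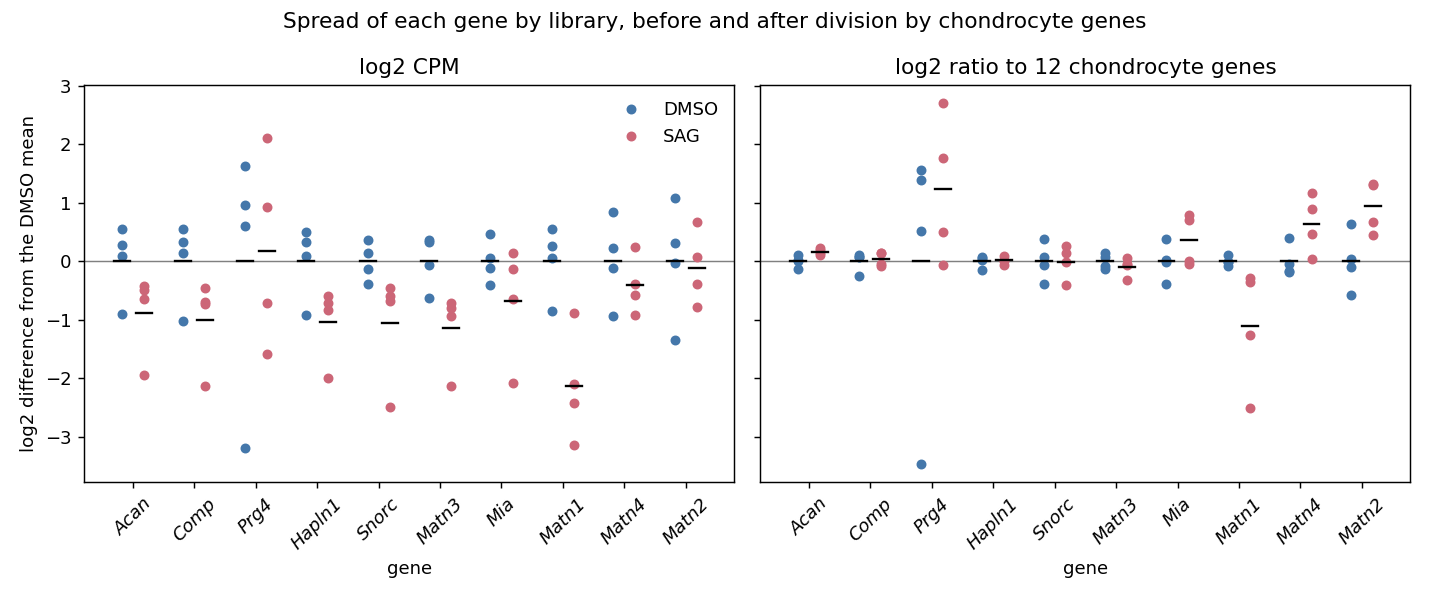
Difference of each library (DMSO blue, SAG red; black lines, group means) from the DMSO mean on the log2 scale, for CPM (left) and for the ratio to 12 chondrocyte reference genes (right). The *Acan*, *Comp* and *Hapln1* points draw together on the right, while *Matn1* in SAG stays below DMSO with a mean difference of -1.10.

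The genes with the profile nearest to *Acan* were found by the root mean square distance of centred log2 CPM over the 8 libraries, among 13883 genes that are not members. They were *Emp2* (0.071), *Lpar1* (0.073), *Col11a1* (0.076), *Sox9* (0.106) and *1190002N15Rik* (0.108), where the median gene lay at 0.965. Among the members *Hapln1* lay at 0.105 and *Comp* at 0.121, whereas *Matn1* lay at 0.916, close to the median gene. For *Prg4* the nearest were *Pdzrn4* (0.593), *Myoc* (0.593), *Adamtsl3* (0.671), *Barx1* (0.720) and *Ntn4* (0.818), with the median gene at 1.78. Since all libraries enter both profiles, likeness here includes the difference between groups and any change in the mixture of cells.

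**Figure D5:**
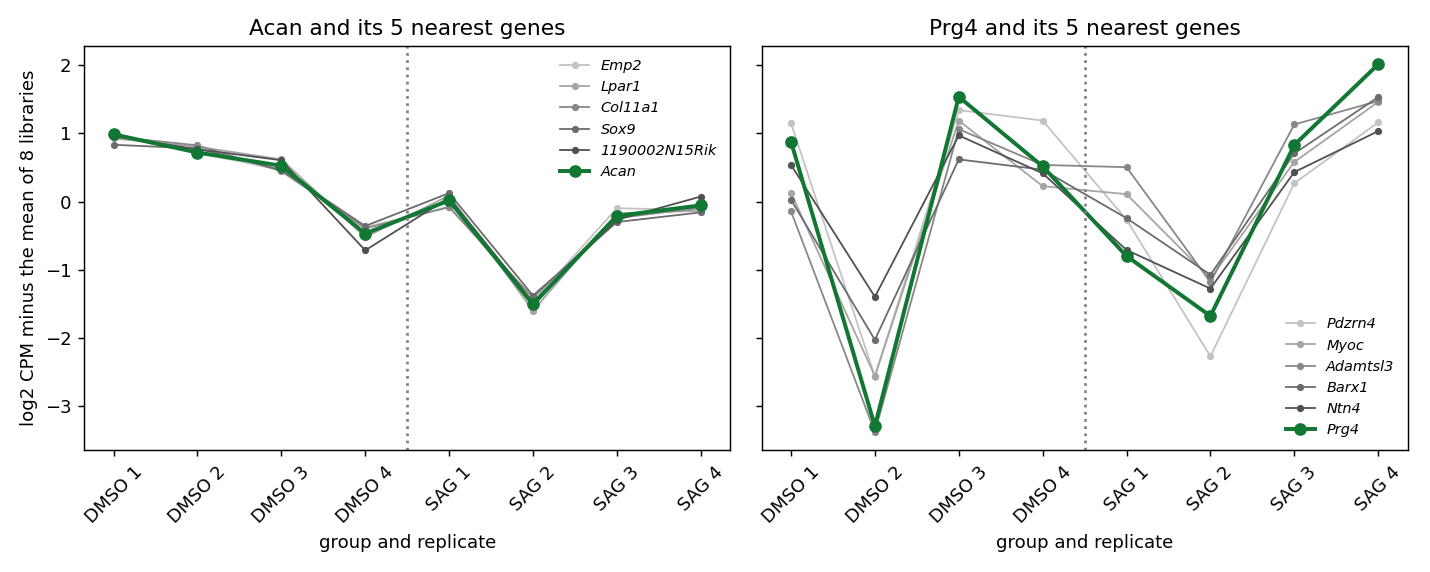
Log2 CPM minus the mean of 8 libraries (vertical axis) by group and replicate (horizontal axis) for *Acan* (left, green) and *Prg4* (right, green) with their 5 nearest genes outside the members (grey). The *Acan* profiles nearly coincide, at distances of 0.071 to 0.108, and the *Prg4* profiles share the low DMSO replicate 2 at distances of 0.593 to 0.818.

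Of 14 binding partners of the members, 13 had a lower estimate, beside 54.8% of all genes, with a median log2 fold change of -1.01. By edgeR 0 were called lower and 1, the hyaluronan receptor *Cd44*, rose, beside 0.266% and 2.62% of all genes. DESeq2 called 6 lower (beside 2.53% of all genes), and edgeR called 9 lower without DMSO replicate 4 (beside 2.17%). *Cd44* was at 262, 293, 300 and 344 CPM in DMSO and at 512, 826, 638 and 740 CPM in SAG, without overlap (log2 fold change 1.18, SE 0.19, edgeR adjusted p = 0.0116). *Cd44* is also a leukocyte adhesion molecule, and the neutrophil sum given above was likewise higher in every SAG library. Whether the 2 differences are related was not tested. The call of *Cd44* was lost when any of DMSO replicate 2, DMSO replicate 3 or SAG replicate 4 was left out. With scaling to the reference genes its log2 fold change was 2.33 (edgeR adjusted p = 0.054). The 12 chondrocyte reference genes, 7 of which are also among the binding partners, all had lower estimates (median -0.96). By edgeR 0 were called, but 8 were called lower without DMSO replicate 4 and 4 by DESeq2, beside 2.17% and 2.53% of all genes. *Col2a1*, the fibril collagen of cartilage, had a log2 fold change of -1.02 (SE 0.35, edgeR adjusted p = 0.158).

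Among 8 growth plate type genes, of which *Fgfr3* is also a reference gene, 7 had a lower estimate (median -1.22). The 1 with a higher estimate was *Pthlh*, the gene behind the sort (log2 fold change 0.37, SE 0.28, edgeR adjusted p = 0.606). By edgeR 2 of the 8 were called lower, beside 0.266% of all genes. *Ihh*, the Hedgehog ligand of prehypertrophic cells, had a log2 fold change of -3.63 (SE 0.73, edgeR adjusted p = 0.0238), and *Col10a1*, the collagen of hypertrophic cartilage, one of -3.49 (SE 0.78, edgeR adjusted p = 0.0368). *Col10a1* was at 473, 280, 14.1 and 364 CPM in DMSO and at 9.57, 28.6, 28.7 and 33.7 CPM in SAG, overlapping through DMSO replicate 3. DESeq2 called 5 of the 8 (beside 2.53% of all genes) and edgeR called 5 without DMSO replicate 4 (beside 2.17%). But edgeR called 0 without DMSO replicate 1 or 2 or SAG replicate 2, 3 or 4. It also called 0 with scaling to the reference genes, where 0.0% of all genes were lower. Of 8 articular-type genes, 4 had a lower and 4 a higher estimate (median -0.05). By edgeR and by DESeq2 0 were called, and 0 had an unadjusted p under 0.05 in edgeR, for example *Creb5*, a transcription factor of superficial articular cells (0.19, SE 0.34, edgeR adjusted p = 0.861), and *Cilp*, a cartilage intermediate layer protein (-0.37, SE 0.51, edgeR adjusted p = 0.801). Whether growth plate and articular-type genes differ in their response was not tested.

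In the remaining cartilage lists edgeR called 0 genes. Among 10 tested relatives of the members' families 7 had a lower estimate (median -0.19), with *Thbs1*, a thrombospondin, at -0.24 (SE 0.19, edgeR adjusted p = 0.599) and *Mia2*, a relative of *Mia*, at 0.40 (SE 0.20, edgeR adjusted p = 0.355). DESeq2 called 1 relative lower, as did edgeR without DMSO replicate 4 (beside 2.53% and 2.17% of all genes). Among 12 genes of matrix turnover 11 had a lower estimate (median -0.52). Of 2 metalloproteinase inhibitors, *Timp3* was at -0.62 (SE 0.39, edgeR adjusted p = 0.508) and *Timp2* at 0.26 (SE 0.31, edgeR adjusted p = 0.769). Of the turnover genes 0 were called by DESeq2 and 1 was called lower by edgeR without DMSO replicate 4 (beside 2.17% of all genes).

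Among 10 regulators of chondrogenesis, 3 of which are also reference genes, 8 had a lower estimate (median -0.81), with *Sox9*, the master factor of chondrocytes, at -0.83 (SE 0.33, edgeR adjusted p = 0.235). At an unadjusted p under 0.05 in edgeR, 5 regulators, 1 family relative and 0 turnover genes were lower, beside 6.5% of all genes. Of the regulators 2 were called lower by DESeq2 and by edgeR without DMSO replicate 4 (beside 2.53% and 2.17% of all genes). Without SAG replicate 1 edgeR called 1 regulator lower, where 35 of all genes were lower. For other tissues in the sorted region, edgeR called 0 osteoblast genes (of 7 tested), 0 erythroid (of 8), 0 tendon and ligament (of 3), 0 endothelial (of 4) and 0 marrow stroma genes (of 4). DESeq2 called 1 osteoblast gene lower (beside 2.53% of all genes) and 0 of the others. Without DMSO replicate 4 edgeR called 1 osteoblast gene lower, beside 2.17% of all genes. Without SAG replicate 2 it also called 1, where 6 of all genes were lower. At an unadjusted p under 0.05 in edgeR, 1 osteoblast gene and 0 of the others were lower, beside 6.5% of all genes.

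Taking all counts, the 10 members held 1.54, 1.16, 1.32 and 0.697% of each DMSO library and 0.711, 0.261, 0.767 and 1.03% of each SAG library. DMSO replicate 4 lay below 3 of the 4 SAG libraries, so the groups overlapped. SAG replicate 2 was the lowest for this share, and its level was also the lowest of all libraries for *Acan*, *Hapln1*, *Comp*, *Matn3*, *Snorc* and *Mia*.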

How the data were processed

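RNA of sorted mCherry+CD73+ cells from 4 DMSO-treated and 4 SAG-treated mice was prepared with the RNeasy micro kit and a SMARTer stranded pico-input kit. The authors deposited raw counts per gene and library, which were whole numbers. Their processing notes name kallisto, DESeq2 and GRCm38, without role or version, and whether estimates were rounded is not given in the sources used here. Libraries were grouped by their labels, and 0 columns were left unmapped.

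The analysis used edgeR 4.0.16 (R 4.3.3). After filterByExpr and TMM scaling, 15421 genes were tested with the robust quasi-likelihood test (SAG against DMSO, Benjamini-Hochberg, threshold 0.05). The SE was the log2 fold change divided by the root of F. CPM used TMM sizes, and per-length values used GENCODE M21 union exons. A count of 0.5 was added in the log2 ratio of *Prg4* to *Acan*, and none in the percent ratios or the ratios to the reference genes. DESeq2 1.42.0, other scalings and filters, a replicate block and leaving out each library were alternatives. The fits were tested on simulated data. Each library was a separate mouse, and the samples share only a replicate number.

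The members and the gene lists were chosen with earlier results of these data known. All members are named, and from each list the called genes (at most 4) or otherwise the 2 with the highest mean CPM, of which some are given. *Pthlh* is named besides, as the 1 growth plate type gene with a higher estimate. The 5 profiles nearest to *Acan* and to *Prg4* are named among genes with a mean count of at least 50. The *Prg4* to *Acan* ratio was compared by an exact permutation test. Histology and flow cytometry were not analysed here.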

Additional observations from a re-analysis of the deposited data

Results flagged for a closer look

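*Comp* relative to the 12 chondrocyte reference genes was lower in DMSO replicate 4 than in the rest of its group, with a log2 ratio of -6.013 where the nearest DMSO library was at -5.70. The gap took up 0.908 of the group's range, above Dixon's critical value for 4 samples at the 95% level. Of 42 measures and groups examined this was the 1 over that value, and chance gives about 2.1.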

How the results depend on the processing

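The log2 fold changes of *Matn1*, *Matn3* and *Snorc* were negative in every fit run, but with scaling to the reference genes those of *Matn3* (-0.094, SE 0.46) and *Snorc* (-0.013, SE 0.46) were far within their error. The ratio of *Snorc* to the reference genes turned from -0.008 to 0.019 without DMSO replicate 3, 0.12 without DMSO replicate 4 and 0.13 without SAG replicate 2. Over all genes, 404 were called higher and 41 lower with edgeR, 797 and 390 with DESeq2, 1 and 0 with scaling to the 12 reference genes, and 80 to 1017 and 4 to 343 when each library was left out. With at least 10 counts in every library 87 were lower. Members called lower, 0 in the report, were 3 with DESeq2, 1 (*Matn1*) with plain library sizes, no filter or at least 10 counts, and 0 to 4 when each library was left out. Scaling to the reference genes turned the sign of *Acan* (0.16), *Hapln1* (0.0116), *Comp* (0.0376), *Matn2* (0.92), *Matn4* (0.68) and *Mia* (0.39). In that fit the median of all genes moved from -0.08 to 1.04. When each library was left out, *Matn2* was between -0.56 and 0.20, with its sign turned without DMSO replicate 1, and *Prg4* between -0.82 and 0.54, with its sign turned without DMSO replicate 2 (-0.30) or SAG replicate 4. The log2 ratio of *Prg4* to *Acan* differed by -0.099 to 1.57 when each library was left out. The cause of these changes was not tested. The same-numbered mice had correlations of deviations of 0.419, -0.028, 0.135 and -0.034, and differently numbered mice of -0.441 to 0.355. So few values cannot exclude a pairing by number, and the main fit used none. With the replicate block 18 genes were lower, 334 higher and 0 members called (*Matn1*, edgeR adjusted p = 0.120). In that fit 0 growth plate type genes and 1 regulator were called lower. With 4 mice a group, differences near 1 on the log2 scale were not separable from the spread between mice for most members, and *Matn1* had 139 counts in its lowest library. The alternatives that leave out libraries of the reference ratios, and the reference without *Col2a1*, were chosen after seeing the data.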
